A study of Mus musculus with 2 samples.

Results

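The 10 genes described here encode enzymes of mitochondrial fatty acid beta-oxidation and were chosen by function: the acyl-CoA dehydrogenases Acadvl, Acadl and Acadm, the trifunctional protein subunits Hadha and Hadhb, the hydroxyacyl-CoA dehydrogenase Hadh, the thiolase Acaa2, the electron transfer enzyme Etfdh, and the auxiliary enzymes Decr1 and Ech1. They are 10 of 25004 genes to which the counted RefSeq transcripts belong, and 9 of them had counts. The hearts came from FvB/N mice, 12 weeks old, and their poly-A RNA was sequenced. The transgenic library was made from mice with a cMyBP-C delta C0-C1f transgene, which encodes cardiac myosin binding protein-C, a thick-filament protein of the sarcomere, lacking an amino-terminal region. The non-transgenic library was made from control mice of that strain and age. Each library pooled 3 hearts, and the promoter of the transgene is not given in the sources used here. The question is which messenger RNAs the transgenic heart regulates differently from the control heart. With 1 library per group no difference has a replicate check or a test, and every interval covers counting error only.

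Beta-oxidation shortens fatty acyl-CoA inside mitochondria by repeated rounds of dehydrogenation, hydration, a further dehydrogenation and thiolytic cleavage, each round releasing acetyl-CoA. Electrons from the dehydrogenation steps reach the respiratory chain through electron transfer flavoprotein and its ubiquinone oxidoreductase, or through NADH. The adult heart draws most of its energy from this pathway, and its genes are known targets of the nuclear receptors PPAR-alpha and oestrogen-related receptor alpha.

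Transcripts of the pathway were present at similar total levels in both libraries. Of the 10 genes, only the thiolase gene Acaa2 passed 1.5-fold in the main setting, and its interval left out 1. Acaa2 was 1.53-fold lower in the transgenic library (1.21 to 1.95), so counting error leaves room for folds below 1.5. It was 1.36-fold lower with library totals and 1.42-fold lower with DESeq2 size factors, short of 1.5-fold in both. The remaining 8 counted members had ratios between 0.814 and 1.20. The members together took 1567 of 190824 counts in the transgenic library, 0.821% (95% exact Clopper-Pearson interval 0.781 to 0.863), and 1264 of 170543 counts in the non-transgenic library, 0.741% (0.701 to 0.783). After scaling with TMM factors, which correct the library totals for differences in composition, the ratio of the summed counts, transgenic over non-transgenic, was 0.986 (0.915 to 1.06). With library totals alone it was 1.11 (1.03 to 1.19), so which library had the higher sum depended on the scaling.

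A gene was called when its ratio was at least 1.5-fold from 1 and its 95% counting interval lay on the same side of 1. Among 9 members with a ratio, none was called higher, 1 was called lower and 8 were neither. Over all 4236 genes with a ratio, 3.42% were called higher and 5.90% lower. Calls in the gene lists further on stand beside the same shares. Among the 513 genes whose counts summed to at least 100, a depth that all 9 members reached, 5.26% were called higher and 13.6% lower. The single lower call among 9 members is thus close to the share among all genes counted as deeply, and says nothing particular about the pathway. The median log2 ratio of the 9 members was -0.03, against 0.05 for all genes with a ratio and -0.19 for those with at least 100 counts.

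**Figure D1:**
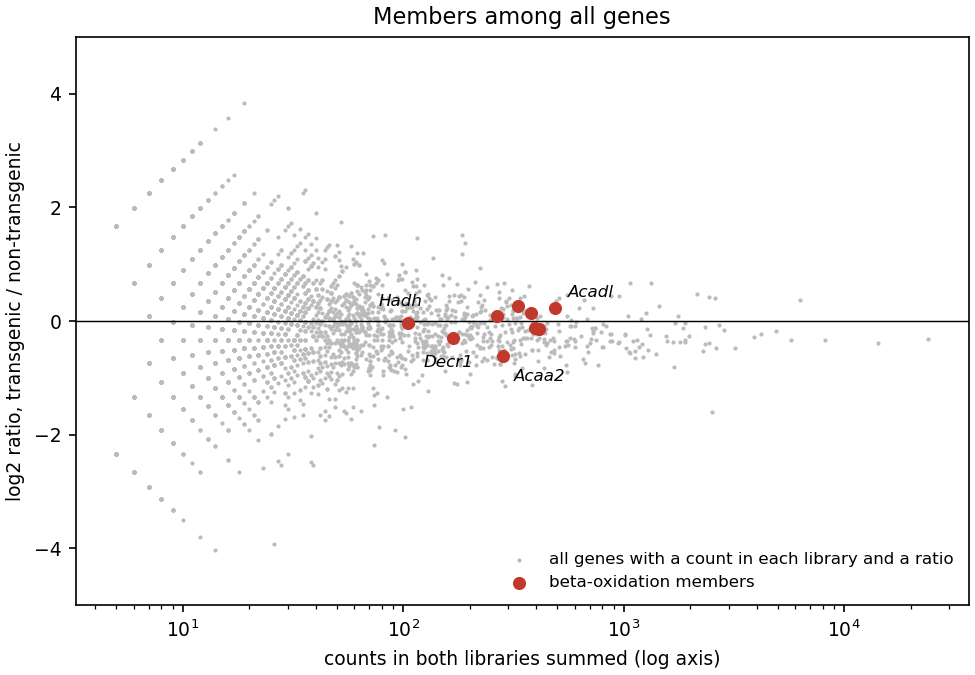
The horizontal axis gives the counts of a gene in both libraries summed, on a log axis, and the vertical axis its log2 ratio, transgenic over non-transgenic, after TMM scaling. Grey points are all genes with a count in each library and a ratio (1 gene lies beyond the axis) and red points the 9 counted members, which lie between -0.62 for Acaa2 and 0.27 for Acadvl.

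The acyl-CoA dehydrogenases are flavoproteins that open each round of the cycle, and the ratios of Acadl, Acadvl and Acadm lay above 1 within counting error. Acadl, the long-chain enzyme (chromosome 1, 66830839 to 66863277, minus strand, GRCm38), had 291 counts in the transgenic and 197 in the non-transgenic library, a normalised ratio of 1.17 (0.977 to 1.41). Acadvl, the very-long-chain enzyme of the inner membrane (chromosome 11, 70010183 to 70015411, minus strand), had 200 and 132 counts in transgenic and non-transgenic hearts, a ratio of 1.20 (0.962 to 1.51). Acadm, the medium-chain enzyme (chromosome 3, 153922357 to 153944632, minus strand), had 221 and 160 counts in transgenic and non-transgenic hearts, a ratio of 1.10 (0.892 to 1.35). All 3 intervals include 1. With library totals alone the intervals of all 3 genes lay above 1, at 1.32 (1.10 to 1.59) for Acadl, 1.35 (1.08 to 1.70) for Acadvl and 1.23 (1.003 to 1.52) for Acadm, still below the size of a call. With DESeq2 size factors those of Acadl at 1.27 (1.05 to 1.52) and Acadvl at 1.30 (1.04 to 1.63) did so too. Relative to the median of genes of its own strand class, described further on, Acadm was at 0.966 (0.785 to 1.19). The balance among them did not differ beyond counting error between the libraries. The count of Acadm relative to Acadl was 0.759 in transgenic and 0.812 in non-transgenic hearts, a ratio between libraries of 0.935 (0.706 to 1.24). That of Acadl relative to Acadvl was 1.46 and 1.49, a ratio between libraries of 0.975 (0.726 to 1.31). These within-library quotients do not depend on the scaling.

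Promoters are shown for the 3 dehydrogenase genes, picked because they lay on the same side of 1 after TMM scaling, with intervals that include 1. The pathway has known nuclear receptor control, and a link between these sequences and the ratios was not tested. Each sequence is the RefSeq promoter stretch of 250 bases before the start that RefSeq annotates, on GRCm38.p6, written 5′ to 3′ on the strand of the gene. Capitals mark matches on either strand to AGGTCA, the half-site that nuclear receptors bind, or to GGGCGG, the GC box; the motifs do not overlap in these sequences. The RefSeq start lies upstream of the GENCODE bound given above for each gene, by 17 bases for Acadvl, 32 for Acadl and 11 for Acadm.
Acadvl (chr11:70015429-70015678, minus strand): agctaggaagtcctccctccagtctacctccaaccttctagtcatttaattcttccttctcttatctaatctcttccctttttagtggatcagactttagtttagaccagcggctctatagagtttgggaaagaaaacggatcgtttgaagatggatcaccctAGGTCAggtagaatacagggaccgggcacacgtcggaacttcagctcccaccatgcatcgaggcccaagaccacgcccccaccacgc
Acadl (chr1:66863310-66863559, minus strand): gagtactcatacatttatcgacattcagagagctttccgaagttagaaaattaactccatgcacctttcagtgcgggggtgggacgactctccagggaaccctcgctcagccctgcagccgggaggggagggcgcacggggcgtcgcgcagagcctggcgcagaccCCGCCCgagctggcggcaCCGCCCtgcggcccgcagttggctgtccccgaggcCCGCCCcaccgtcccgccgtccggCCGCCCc
Acadm (chr3:153944644-153944893, minus strand): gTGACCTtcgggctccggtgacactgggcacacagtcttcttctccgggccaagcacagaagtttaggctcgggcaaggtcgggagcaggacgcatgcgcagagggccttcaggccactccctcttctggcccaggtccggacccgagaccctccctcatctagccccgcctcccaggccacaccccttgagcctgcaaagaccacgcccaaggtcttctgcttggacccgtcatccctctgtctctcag
Acadvl and Acadm each held 1 half-site and no GC box, whereas Acadl held 4 GC boxes and no half-site. The half-site of Acadvl starts 87 bases before the RefSeq start and is on the strand of the gene, and that of Acadm starts 249 bases before its own and is on the other strand. The half-site occurred in 14.0% and the GC box in 32.7% of all 32851 promoter stretches of this length, so the matches describe the letters and mark no binding site. RefSeq promoter entries were matched for 8 of the 10 members. The stretches of Hadha, Hadhb, Hadh, Etfdh and Ech1 held no half-site. Hadhb, Hadh and Ech1 held 2 GC boxes each, Hadha held 1 and Etfdh none.

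Etfdh, the ubiquinone oxidoreductase that takes electrons from electron transfer flavoprotein (chromosome 3, 79603788 to 79629500, minus strand), had 152 counts in the transgenic and 113 in the non-transgenic library. Its ratio was 1.07 (0.833 to 1.38). Its electron donor is made of the products of Etfa and Etfb. Etfa had 99 counts in transgenic and 62 in non-transgenic hearts, a ratio of 1.27 (0.915 to 1.77), and Etfb had none in either library. The flavin-linked members Acadvl, Acadl, Acadm and Etfdh thus made up the 4 counted members with a ratio above 1, and the 5 with a ratio below 1 act at later or auxiliary steps. After TMM scaling all but Acaa2 had intervals that include 1, and 4 members (Acadm, Hadha, Hadh and Ech1) changed sign under another scaling or centring. This order is thus a description of these libraries. It did not extend to 11 further genes with a ratio, described further on. Of these, 10 lay above 1, among them Echs1 of a later step at 1.22, and the dehydrogenase gene Acads lay below, at 0.894. The intervals of Echs1 and Acads include 1.

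**Figure D2:**
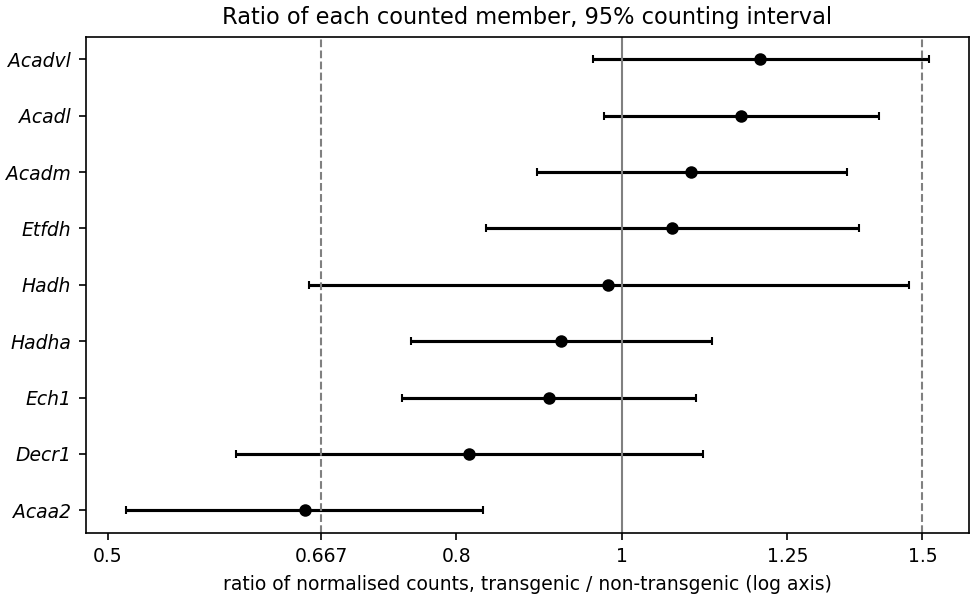
Points give the TMM-scaled ratio, transgenic over non-transgenic, on a log axis for the 9 counted members, and bars the 95% counting interval. Dashed lines stand at 1.5-fold in either direction; Acaa2, at 0.652, is the only member past one of them, and its interval of 0.512 to 0.830 is the only one that leaves out 1.

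The trifunctional protein of the inner membrane carries out the later steps for long-chain substrates, and only its alpha subunit gene could be measured. Hadha, which encodes the hydratase and long-chain hydroxyacyl-CoA dehydrogenase subunit (chromosome 5, 30118304 to 30155162, minus strand), had 212 counts in the transgenic and 183 in the non-transgenic library, a ratio of 0.921 (0.752 to 1.13). Hadhb, which encodes the thiolase subunit (chromosome 5, 30155248 to 30184593, plus strand), was at 0 in both libraries. The exact Poisson interval of a count of 0 reaches up to 18.2 CPM in the transgenic and 22.9 CPM in the non-transgenic library, and the one-sided 95% limit of 3 counts equals 14.8 and 18.6 CPM. CPM here are counts scaled to a common library total with the TMM factors. Hadhb is listed under 3 transcripts, and of all genes with 3 transcripts 86.8% had no count in either library, against 58.9% of genes with a single transcript. All other 9 members have a single transcript in the table. The 0 therefore does not show that Hadhb was barely expressed, and the balance of the alpha and beta subunits could not be compared.

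The genes Hadha and Hadhb lie head to head, and the stretch between their annotated bounds is shown since it separates the counted from the uncounted subunit gene. It spans 85 bases of GRCm38.p6 between the GENCODE bounds of the genes, is taken from the RefSeq promoter entry of Hadhb and is written on the plus strand, with GC boxes in capitals.
Hadha-Hadhb (chr5:30155163-30155247, plus strand): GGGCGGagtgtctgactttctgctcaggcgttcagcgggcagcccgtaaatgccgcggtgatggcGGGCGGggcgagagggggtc
It held 2 matches to GGGCGG and none to AGGTCA.

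Hadh, the hydroxyacyl-CoA dehydrogenase for medium and short chains (chromosome 3, 131233419 to 131272101, minus strand), had the lowest count of the measured members. It had 58 counts in the transgenic and 47 in the non-transgenic library, a ratio of 0.981 whose interval of 0.656 to 1.47 leaves room for a change of about 1.5-fold either way. The quotient of Hadh to Hadha, which serves the same step for long chains, was 0.274 in transgenic and 0.257 in non-transgenic hearts. Between the libraries this was a ratio of 1.07 (0.676 to 1.68).

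Acaa2, the thiolase that completes the cycle for medium and short chains (chromosome 18, 74779197 to 74806208, plus strand), received 128 counts in the transgenic and 156 in the non-transgenic library, although the transgenic library held more counts in all. Its level was 633 CPM (exact Poisson interval 528 to 752) in transgenic hearts and 970 CPM (824 to 1134) in non-transgenic hearts, and these intervals do not overlap. The ratio was 0.652 (0.512 to 0.830), or 1.53-fold lower (1.21 to 1.95). The direction was the same with every scaling tried, while the size fell below 1.5-fold in some. Acaa2 was 1.36-fold lower (1.07 to 1.74) with library totals and 1.42-fold lower (1.12 to 1.81) with DESeq2 size factors, which ended the call in both cases. It was 1.57-fold lower (1.23 to 1.995) with upper-quartile factors.

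The counts of Acaa2 were also set against those of the other members within each library, which needs no scaling. Acaa2 was taken because it was the called member, so these quotients restate its counts and lend its call no further support. The count of Acaa2 relative to Acadvl was 0.640 in transgenic and 1.18 in non-transgenic hearts, a quotient of 0.542 (exact conditional interval 0.388 to 0.756). Relative to Acadl it was 0.440 in transgenic and 0.792 in non-transgenic hearts, a quotient of 0.555 (0.409 to 0.755). Over all 8 other counted members the quotients ran from 0.542 to 0.801, and the interval left out 1 in 6 of 8. The exceptions were Hadh at 0.665 (0.413 to 1.07) and Decr1 at 0.801 (0.537 to 1.20). Of the 28 pairs of counted members without Acaa2, none had an interval that left out 1. The intervals of Acadvl to Decr1, at 1.48 (0.9999 to 2.19), and Acadl to Decr1, at 1.44 (0.998 to 2.08), ended close to it. Of 8 pairs chosen by shared role, 6 could be formed, among them Acaa2 with Hadh, and the interval of none left out 1. The quotients with Acaa2 share its counts and are not independent of each other.

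**Figure D3:**
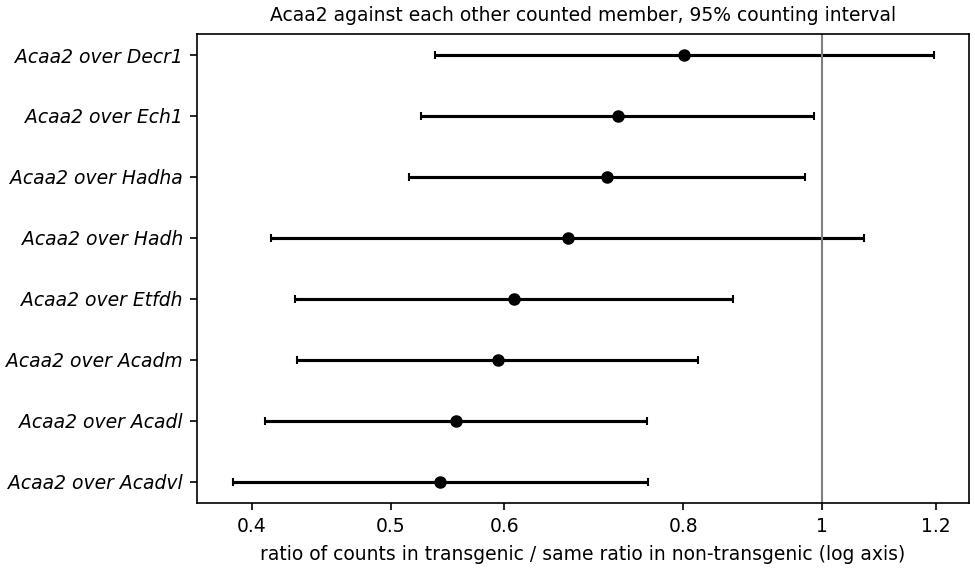
Points give the count of Acaa2 relative to each other counted member in the transgenic library divided by the same quotient in the non-transgenic library, on a log axis, with 95% counting intervals as bars. All 8 points lie below 1, from 0.542 with Acadvl to 0.801 with Decr1, and the intervals with Hadh and Decr1 reach past 1.

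Among the other thiolase genes in the lists, only Acat1 was counted as deeply as the members. Acat1, the acetoacetyl-CoA thiolase of mitochondria, had 138 counts in the transgenic and 96 in the non-transgenic library, a ratio of 1.14 (0.874 to 1.499). The peroxisomal thiolase genes Acaa1a and Acaa1b had 1 count between them, that of Acaa1b in the transgenic library. Scp2, which encodes a peroxisomal sterol carrier with thiolase activity, had 19 counts in the transgenic and 10 in the non-transgenic library, a ratio of 1.51 (0.668 to 3.64).

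Ech1 and Decr1 prepare unsaturated fatty acids for the cycle. Ech1, a dienoyl-CoA isomerase (chromosome 7, 28825217 to 28832247, plus strand), received 220 counts in the transgenic and 193 in the non-transgenic library, a ratio of 0.906 (0.744 to 1.11). Decr1, the mitochondrial dienoyl-CoA reductase (chromosome 4, 15917240 to 15945507, minus strand), had 85 and 83 counts in transgenic and non-transgenic hearts, a ratio of 0.814 (0.595 to 1.12). Neither interval leaves out 1 after TMM scaling. The count of Decr1 relative to Ech1 was 0.386 in transgenic and 0.430 in non-transgenic hearts, a ratio between libraries of 0.898 (0.617 to 1.31).

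Per kb of counted transcript, Ech1 had the highest level of the members in both libraries, at 858 CPM per kb (749 to 979) in transgenic and 947 CPM per kb (818 to 1090) in non-transgenic hearts. Acadl followed in transgenic hearts at 751 CPM per kb (667 to 842), against 639 (553 to 735) in non-transgenic hearts. Acaa2 was at 417 CPM per kb (348 to 496) in transgenic hearts, number 5 in the order, and at 640 (543 to 748) in non-transgenic hearts, level with Acadl. Acadm, Acadvl, Etfdh and Hadha came next in both libraries once Acaa2 is left out, from 534 down to 261 CPM per kb in transgenic and from 486 down to 283 in non-transgenic hearts. Hadh and Decr1 were lowest, at 160 and 142 CPM per kb in transgenic and 163 and 174 in non-transgenic hearts. The intervals of neighbours in this order overlapped, with a few exceptions. These were Acadl with Acadm and Hadha with Hadh in the transgenic library, and Ech1 with Acaa2 and Hadha with Decr1 in the non-transgenic library.

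**Figure D4:**
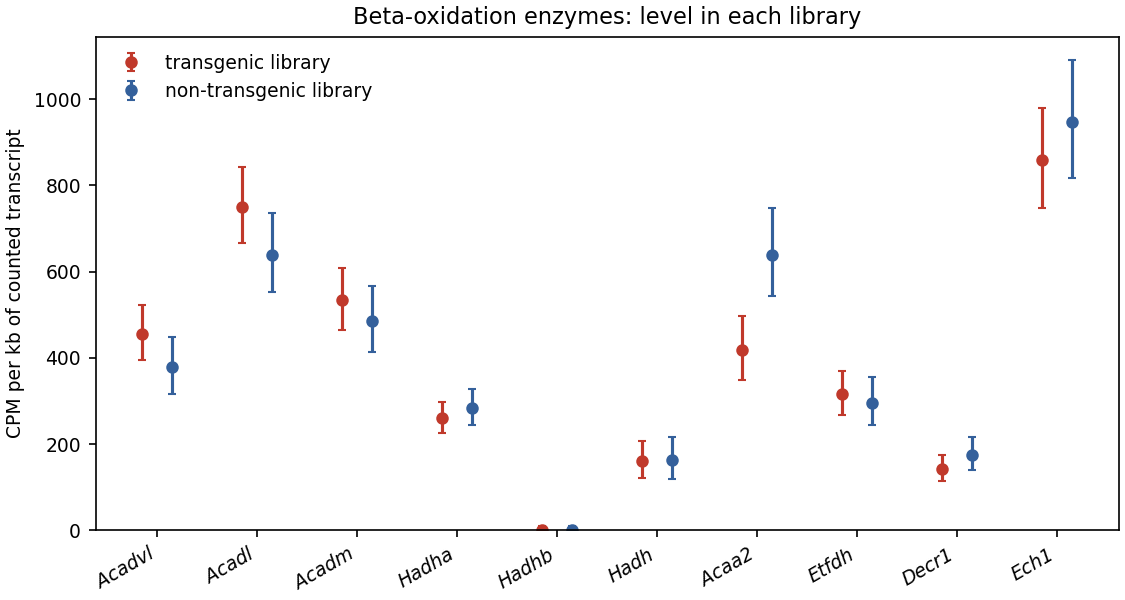
The vertical axis gives CPM, scaled with TMM factors, per kb of counted transcript for the 10 members, in the transgenic library (red, left of each pair) and the non-transgenic library (blue, right), with 95% exact Poisson intervals as bars. Acaa2 is the only gene whose intervals do not overlap between the libraries, and Hadhb is at 0 in both.

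What a count stands for depends on strand, since the library kit keeps strand and the strand setting of the counting is not given in the sources used here. Among the members, 4 have no gene within 5 kb on the opposite strand, 3 have one near and 3 overlap one by annotation. Dvl2, opposite Acadvl, had 2 counts in the transgenic and 3 in the non-transgenic library, and the exons of the counted transcripts do not overlap. Garem2, whose counted exons share 75 bp with those of Hadha, had none in either library, and neither had 4930579G24Rik opposite Etfdh. The opposite-strand neighbours other than Hadha that are in the table had at most 6 counts. Among genes with at least 30 counts summed, the median log2 ratio was -0.26 for overlapping, 0.06 for near and 0.19 for isolated genes. Relative to its own class Acaa2, a near gene, was 1.59-fold lower (1.25 to 2.03) and Acadvl, an overlapping gene, 1.44-fold higher (1.15 to 1.81). Of the isolated genes, Decr1 was then 1.40-fold lower (1.02 to 1.91) and Ech1 1.25-fold lower (1.03 to 1.53), with intervals that leave out 1 but folds below the size of a call. The part of strand assignment in the ratios was not tested.

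A list of 15 further genes for mitochondrial beta-oxidation had 11 with a ratio and none called higher or lower. It also holds acyl-CoA dehydrogenases of amino acid breakdown, Ivd, Acad8, Acadsb and Gcdh. The ratio was above 1 in 10 of the 11 and below 1 in Acads. Among the 10 were Ivd at 1.37 (0.817 to 2.34), Acadsb at 1.16 (0.687 to 1.99) and Acad8 at 2.78 (0.530 to 27.5). The median log2 ratio of the 11 was 0.34, against 0.05 for all genes with a ratio. Over all genes with a ratio, 2190 of 4236 had a ratio above 1. Echs1, the short-chain enoyl-CoA hydratase, had 69 counts in the transgenic and 45 in the non-transgenic library, a ratio of 1.22 (0.825 to 1.82). Eci1, the enoyl-CoA isomerase, had 54 counts in the transgenic and 42 in the non-transgenic library, a ratio of 1.02 (0.670 to 1.57). Acads, the short-chain dehydrogenase, had 18 and 16 counts in transgenic and non-transgenic hearts, a ratio of 0.894 (0.431 to 1.88). Each of the 3 genes without a count, Eci2, Etfb and Gcdh, has more than 1 transcript in the table.

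**Figure D5:**
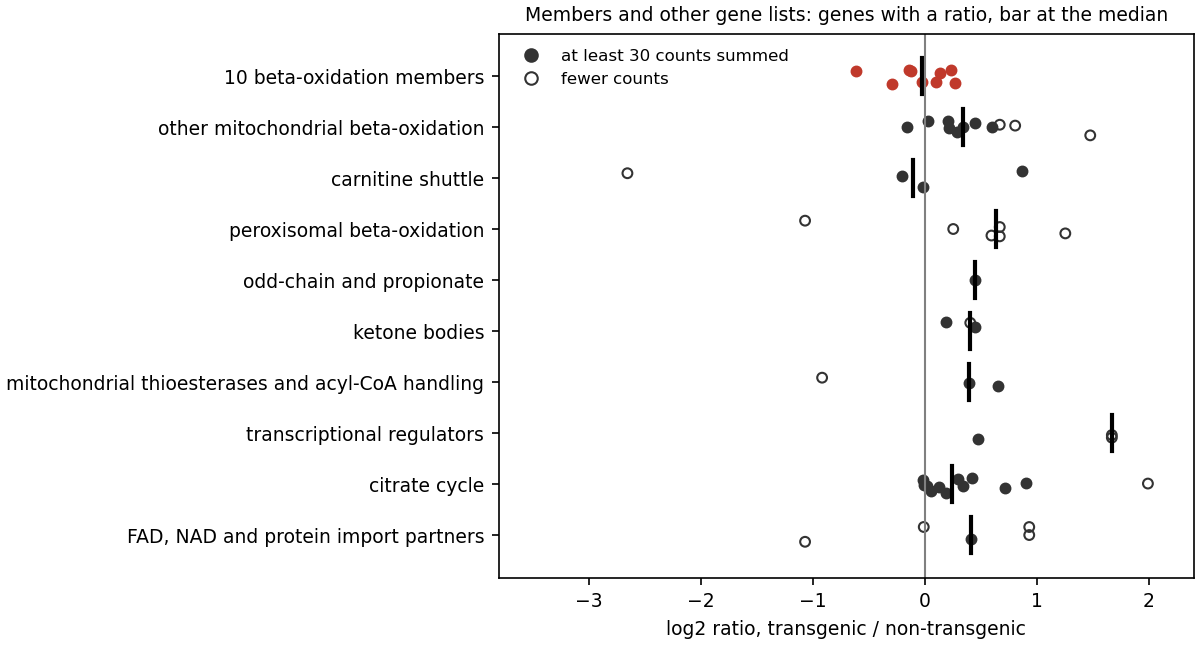
Each point is a gene with a ratio, placed by its log2 ratio, transgenic over non-transgenic, in rows for the 10 members (red) and 9 other gene lists; filled points have at least 30 counts summed, open points fewer, and black bars mark the medians. The members lie between -0.62 and 0.27, and most citrate cycle genes lie at or above 0. Hspd1, with 0 counts in the transgenic library, is drawn at the value that a floor of 3 counts gives.

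The carnitine shuttle, which brings acyl groups into mitochondria, had 4 of 7 genes with a ratio and no call, with a median log2 ratio of -0.11. Crat, carnitine acetyltransferase, had 61 counts in the transgenic and 49 in the non-transgenic library, a ratio of 0.990 (0.668 to 1.47), and Cpt2, the inner carnitine palmitoyltransferase, had 23 and 21 counts in transgenic and non-transgenic hearts, a ratio of 0.871 (0.461 to 1.65). Cpt1b, the muscle form of the outer enzyme, had 2 counts in the transgenic library and 0 in the non-transgenic library. Of 16 peroxisomal genes, 6 had a ratio and none was called (median 0.63). The most counted were Scp2 and Hsd17b4, a bifunctional enzyme of the peroxisomal cycle, with 15 counts in the transgenic and 5 in the non-transgenic library, a ratio of 2.39 (0.824 to 8.39). Of 6 genes for odd-chain products only Mmut, methylmalonyl-CoA mutase, had a ratio, 1.36 (0.677 to 2.85) with 24 counts in transgenic and 14 in non-transgenic hearts, and Mcee, the epimerase, had 2 and 1.

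Ketone body genes make or use acetyl-CoA derived from the cycle, and thioesterases release acyl groups from CoA. Of 4 ketone body genes described here, 3 had a ratio and none was called, with a median log2 ratio of 0.41. Oxct1, which starts the use of ketone bodies, had 223 counts in the transgenic and 130 in the non-transgenic library, a ratio of 1.36 (1.09 to 1.71), short of a call. Of 9 genes for thioesterases and acyl-CoA handling, 3 had a ratio (median 0.39) and the thioesterase gene Acot13 was called higher, at 1.57 (1.21 to 2.05) with 176 counts in transgenic and 89 in non-transgenic hearts.

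Of 17 citrate cycle genes described here, 12 had a ratio, 2 (Dlst and Sdhd) were called higher and none lower, and the median log2 ratio was 0.25. Over all genes with a ratio 3.42% were called higher, and 5.26% of those with at least 100 counts summed. Dlst, the succinyltransferase of the oxoglutarate dehydrogenase complex, had 80 counts in the transgenic and 34 in the non-transgenic library, a ratio of 1.87 (1.24 to 2.88). Sdhd, a membrane subunit of succinate dehydrogenase, was the second, with 64 counts in transgenic and 31 in non-transgenic hearts. Idh2, mitochondrial isocitrate dehydrogenase, had 324 counts in the transgenic and 254 in the non-transgenic library, a ratio of 1.01 (0.858 to 1.20). Mdh2, mitochondrial malate dehydrogenase, had a ratio of 1.04 (0.827 to 1.31). With library totals 3 citrate cycle genes were called higher, while higher calls over all genes went from 145 to 244.

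Of 17 transcriptional regulators of the pathway, 3 had a ratio, and 12 had no count in either library, among them Ppara, Ppargc1a, Esrrg and Rxra. All 12 have more than 1 transcript in the table. Esrra, oestrogen-related receptor alpha, had 21 counts in the transgenic and 12 in the non-transgenic library, a ratio of 1.39 (0.654 to 3.10), and the mitochondrial transcription factor gene Tfam had 12 and 3 counts in transgenic and non-transgenic hearts, a ratio of 3.18 (0.858 to 17.6). The third, Ppard, had 4 counts in the transgenic library and 1 in the non-transgenic library. None of the 3 was called, and differences in these regulators were not detectable at this depth. Of 11 genes for cofactors and protein import, 5 had a ratio (median 0.41). Hspd1, the mitochondrial chaperonin, was called lower with 0 counts in the transgenic and 5 in the non-transgenic library, and the near end of its counting interval was at 1.15-fold lower. Hspd1 is listed under 2 transcripts, and of all genes with more than 1 transcript 85.1% had no count in either library, so its 0 does not show low expression. Hspa9, the mitochondrial import chaperone, had 189 counts in the transgenic and 113 in the non-transgenic library, a ratio of 1.33 (1.05 to 1.69), which is below the size of a call.

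The libraries carried the markers of heart muscle, although several defining ones were at or near 0 counts. Of 10 cardiomyocyte markers 8 had a count, and the list summed to 38178 CPM in transgenic and 28534 CPM in non-transgenic hearts. Of the 6 with a ratio, 5 lay above 1 and 1 below (median log2 ratio 0.40). Tnnc1, cardiac troponin C, was called higher at 1.59 (1.39 to 1.81). Tnni3 at 1.40 (1.28 to 1.53), Actc1 at 1.34 (1.23 to 1.45) and Myl2 at 1.29 (1.23 to 1.36) were short of a call. Tnnt2 and Myl3, each with more than 1 transcript, were at 0. Fibroblast markers, of which 6 of 7 had a count, summed to 188 CPM in transgenic and 311 CPM in non-transgenic hearts. All 4 fibroblast markers with a ratio lay below 1 (median log2 ratio -0.81), and the collagen gene Col3a1 was called lower, with 14 counts in the transgenic and 23 in the non-transgenic library and a ratio of 0.484 (0.230 to 0.981). Endothelial markers (4 of 6) summed to 1251 CPM in transgenic and 1374 CPM in non-transgenic hearts, without a call. All 4 lay below 1 (median log2 ratio -0.31). The most counted were Fabp4 at 0.971 (0.780 to 1.21) and Cdh5 at 0.856 (0.540 to 1.36). Adipocyte markers, whose cells also express beta-oxidation genes, summed to 6 counts in the transgenic and 7 in the non-transgenic library. Plin1 and Cidec, each with more than 1 transcript, and Ucp1 and Lep were at 0 in both. Adipoq had 1 count, in the transgenic library, and Cidea the rest. Smooth muscle and pericyte markers (3 of 5) summed to 964 CPM in transgenic and 615 CPM in non-transgenic hearts. Most of their counts came from Rgs5, a pericyte marker, with 157 in transgenic and 65 in non-transgenic hearts. Rgs5 was called higher at 1.92 (1.43 to 2.61). Tagln, with 26 counts in transgenic and 28 in non-transgenic hearts, lay below 1 at 0.738 (0.416 to 1.31). Acta2, with 12 and 6, lay above 1 at 1.59 (0.552 to 5.16). Of 4 atrial markers only Nppa, the atrial natriuretic peptide gene, was counted, and it was called higher with 31 counts in transgenic and 9 in non-transgenic hearts, a ratio of 2.74 (1.27 to 6.54). Nppa overlaps a gene on the opposite strand. The atrial markers Myl7 and Sln, each with 1 transcript, and Myl4, with more than 1, were at 0 in both libraries. Leukocyte markers (4 of 6, mostly Lyz2 and C1qa) had 20 and 14 counts and skeletal muscle markers (3 of 6, nearly all from Ckm, which the heart also expresses) 397 and 343 in transgenic and non-transgenic hearts, and erythroid markers had none. In pooled tissue fewer cells of a type and less RNA per cell cannot be told apart, and the part of cell composition in the ratio of Acaa2 was not tested. Mybpc3 had 398 counts in the transgenic and 344 in the non-transgenic library, a ratio of 0.920 (0.794 to 1.07), which does not separate transgene from endogenous transcripts and checks nothing about the labels.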

How the data were processed

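The authors deposited raw, whole-number counts for each RefSeq transcript. STAR, HTSeq and mm10 are named, per the submitters' processing notes, whereas tool versions, annotation and strand setting were not given in the sources used here. Poly-A RNA was selected and made into strand-keeping libraries, per the labels' protocols. Of 41449 transcripts, 41252 took their gene names from a RefSeq table and 99 through GENCODE M21 (GRCm38), and counts were summed over 25004 genes; the 98 unnamed ones (1.66% of transgenic and 1.81% of non-transgenic counts) were kept as rows of their own.

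Totals were 190824 counts in the transgenic and 170543 in the non-transgenic library, and a single count equalled 4.94 and 6.22 CPM after TMM scaling (factors 1.06 and 0.943, edgeR 4.0.16). With 1 library per group no quasi-likelihood test could be run. Ratios have exact 95% Clopper-Pearson intervals, levels exact Poisson intervals and quotients between members exact conditional intervals, all for counting error only. A ratio was given where a gene exceeded 3 counts in a library, and a count of 0 was set to a floor of 3. Overlap means at least 1 shared exonic base with a gene on the opposite strand, and near means within 5 kb. The calculations were tested on simulated counts.

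The settings tried were size factors from DESeq2 1.42.0, library totals, upper-quartile factors, the most counted transcript of a gene, other filters, a 2-fold threshold and centring within strand class. The members, gene lists and tests were chosen with earlier results of these data known. All 10 members were named, with the called or, where none was called, the 2 most counted genes of each list, Mybpc3 and overlapping opposite-strand genes; further genes, such as those of the thiolases, were chosen after their values were seen, as were the background of genes with at least 100 counts, the motifs and the pairs outside the 8 chosen by role. A few genes of the lists are not reported here. Likeness of pattern cannot be ranked over 2 libraries. Calculations used Python 3.11.15, scipy 1.17.1 and R 4.3.3.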

Additional observations from a re-analysis of the deposited data

How the results depend on the processing

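The lower call of Acaa2, 1 member in the main setting, went to 0 members with DESeq2 size factors, with library totals and at a 2-fold threshold, since its fold then lay below the threshold. Its log2 ratio lay between -0.67 and -0.45 in every alternative tried for it. No member was called higher under any of these. The median log2 ratio of the members was -0.03 and lay at 0.08 with DESeq2 size factors and 0.14 with library totals, which moved the median of all genes from 0.05 to 0.16 and 0.22. Relative to the median of all genes the members stood at -0.08, a difference that no scaling can move. It was -0.02 with a minimum of 10 counts, -0.12 when centred within strand class and 0.08, on the other side, with no filter on low counts. Set beside the genes with at least 100 counts summed, whose median was -0.19 in the main setting, the members at -0.03 lay higher. That background was not matched to the members in strand class. Without the 3 members that overlap a gene on the opposite strand, an alternative chosen after seeing the data, the median was -0.08 and Acaa2 was still called.

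Over all genes, 145 were called higher and 250 lower. Higher calls were 218 with DESeq2 size factors and 244 with library totals, and lower calls 148 with library totals and 157 at 2-fold. Higher genes were therefore 36.7% of all calls in the main setting, 54.1% with DESeq2 size factors and 62.2% with library totals. The lower call of Hspd1 could not be made with a minimum of 10 counts or where a count in each library was required. No paired analysis was possible because each group has 1 library, and for the same reason no replicate could be left out. Depth limits Hadh and genes of low count outside the members most, as the width of their intervals shows.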
